A study of Rattus norvegicus with 19 samples.

Results

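T, B and NK lymphocytes each express genes that few other cells use, and these genes were followed in the left ventricles of rats given a model of heart failure with preserved ejection fraction (HFpEF). The genes came from a list of 36 symbols, and every listed symbol in the count files was taken. Of the 36, 34 were found among the 17455 genes of the files, and 31 had counts high enough to be tested, among 12388 tested genes. Themis and Cd79a are not analysed here, and Ms4a1, Pax5 and Ltb were too low to test. T cells read antigen through a receptor whose signal passes from the Cd3 chains and Cd247 to the kinases Lck and Zap70 and the adaptor Lat, while B cells signal through Cd79b. NK cells and cytotoxic T cells kill with perforin and granzymes, and NK receptors such as Klrd1 and Ncr1 set when they do so. A healthy heart holds few lymphocytes beside its resident macrophages, and T cells are known to enter the heart in experimental heart failure.

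The animals were Sprague-Dawley rats aged 24 weeks at the start, whose strain field reads Wildtype. Control rats were sampled at week 5 (control 5w) and at week 9 (control 9w), 3 libraries each. By the paper they ate normal chow, and they had no L-NAME in their water. HFpEF rats drank 0.5 g/L L-NAME, which blocks nitric oxide synthesis, for 5 weeks and ate a diet with 60% of its kilocalories from lard, and 3 were sampled at week 5 (HFpEF). The paper's methods give 5 weeks, but its discussion speaks of induction over 9 weeks, so L-NAME and the diet may have continued during treatment. Other HFpEF rats then received, by gavage for 4 weeks, PBS (untreated, 3 libraries), empagliflozin, an SGLT2 inhibitor, at 0.35 g/kg/day (EMPA, 2 libraries), pirfenidone, an antifibrotic drug, at 0.3 g/kg/day (PFD, 2 libraries), or both drugs at these doses (EMPA + PFD, 3 libraries), and were sampled at week 9. Each of the 19 libraries came from bulk tissue, with 7430539 to 13017754 counts in total. Levels are given as CPM, counts scaled to a common library total after adjustment by TMM, which assumes that most genes keep their level between libraries. A count of 0 allows a true level of up to 3 counts, under 1 CPM at these depths.

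Several libraries stood apart from their labels or their group. All 19 are labelled male, and the paper describes groups with both sexes in equal number, of which male hearts were sequenced. However, Eif2s3y, a Y-linked gene, had 0 counts in 7 libraries, namely HFpEF 1 and 3, all 3 untreated and both PFD. It had at least 613 in the other 12. Comparisons of untreated with control 9w, EMPA or EMPA + PFD therefore set libraries without these counts against libraries with them, and that difference cannot be told apart from disease or drug. RT1-CE16, a class I histocompatibility gene, had at most 3 counts in each library of control 5w, HFpEF and EMPA, 8 in all. The others had from 308 to 922. Control 9w therefore differs from control 5w in it too, as do untreated, PFD and EMPA + PFD from HFpEF, and EMPA from untreated. In those comparisons this difference cannot be told apart from time or drug. HFpEF 1 had the lowest summed level of cardiomyocyte genes of the 19, 18769 CPM, and the highest of macrophage genes. The summed level of atrial genes was highest in untreated 2 and control 9w 3, where it was 14952 and 23405 CPM, and Sln and Myl4, genes of this list, were also high in control 9w 1. Fibroblast genes summed to 4459.8, 40884 and 32939.6 CPM in control 5w, where library 1 was far below the other libraries. Lymphocyte DEG counts are given with and without single libraries.

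Lymphocyte genes were low in every library. The 34 genes found summed to 129, 183 and 169 CPM in control 5w, 364, 201 and 268 in HFpEF, 185, 153 and 154 in control 9w and 218, 215 and 126 in untreated. The same sum was 225 and 103 CPM in EMPA, 97.3 and 169 in PFD and 158, 86.7 and 163 in EMPA + PFD, and Cd4, which rat macrophages also express, was the most abundant gene in it on average over the 19 libraries, though below Klrd1 in control 9w 1 and 2. HFpEF 1 held the highest sum of the 19, and EMPA + PFD 2 the lowest. The defining B cell gene Ms4a1, which encodes CD20, had 0 to 17 counts per library, Pax5, the transcription factor of B cell identity, 0 to 7, and Ltb, a lymphoid cytokine, 1 to 9, so all 3 were near the limit of these depths. A lower level of a gene in bulk tissue can mean fewer cells of a type or less RNA per cell, and these cannot be told apart.

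The T cell receptor complex comprises Cd3e, Cd3d, Cd3g and Cd247, which together carry the antigen signal into the cell. Cd3e was at 1.22, 2.56 and 3.74 CPM in control 5w, 9.47, 3.94 and 7.32 in HFpEF, 1.13, 0.492 and 0.997 in control 9w and 6.75, 5.36 and 2.95 in untreated. Cd3e reached 4.26 and 1.46 CPM in EMPA, 2.52 and 4.73 in PFD and 3.19, 1.43 and 1.67 in EMPA + PFD. The 3 control 9w libraries lay below the other 16, and HFpEF 1, HFpEF 3 and untreated 1 were the highest. Cd3d was at 0.565, 1.4 and 1.19 CPM in control 5w, 4.52, 3.12 and 3.75 in HFpEF, 1.47, 0.615 and 0.499 in control 9w and 2.32, 2.35 and 0.843 in untreated. Cd3d reached 1.73 and 0.486 CPM in EMPA, 0.548 and 1.65 in PFD and 1.54, 0.717 and 0.627 in EMPA + PFD. HFpEF held the 3 highest libraries of the 19, while the other groups overlapped. Cd3g was at 1.51, 3.49 and 3.26 CPM in control 5w, 10.1, 6.14 and 8.4 in HFpEF, 2.48, 3.44 and 1.2 in control 9w and 5.91, 4.71 and 2.11 in untreated. Cd3g reached 5.06 and 3.4 CPM in EMPA, 1.97 and 5.04 in PFD and 2.48, 0.956 and 1.25 in EMPA + PFD. HFpEF again held the 3 highest libraries, and EMPA + PFD 2 and control 9w 3 the lowest. Cd247 was at 1.6, 2.64 and 1.91 CPM in control 5w, 5.81, 3.85 and 5.0 in HFpEF, 3.05, 2.71 and 2.69 in control 9w and 5.38, 3.73 and 1.37 in untreated. Cd247 reached 4.0 and 1.82 CPM in EMPA, 1.97 and 2.47 in PFD and 2.72, 1.55 and 2.93 in EMPA + PFD. Every HFpEF library lay above every control 5w library, and untreated 1 and EMPA 1 lay among the HFpEF libraries.

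The coreceptors Cd4 and Cd8a, the latter with Cd8b, bind class II and class I histocompatibility molecules. Cd4 was at 54.3, 95.9 and 81.5 CPM in control 5w, 141, 35.3 and 86.9 in HFpEF, 21.4, 11.2 and 25.2 in control 9w and 37.2, 55.9 and 32.8 in untreated. Cd4 reached 29.2 and 27.1 CPM in EMPA, 29.9 and 33.8 in PFD and 29.2, 16.9 and 37.7 in EMPA + PFD. HFpEF 1 was highest and HFpEF 2 was lower than any control 5w library, so these groups overlapped, whereas all control 9w libraries were below all control 5w libraries. Cd8a was at 4.15, 4.89 and 4.38 CPM in control 5w, 20.4, 11.7 and 16.4 in HFpEF, 4.17, 3.81 and 4.59 in control 9w and 21.2, 18.3 and 7.59 in untreated. Cd8a reached 12.1 and 4.98 CPM in EMPA, 3.07 and 11.7 in PFD and 9.11, 3.47 and 5.22 in EMPA + PFD. The 6 control libraries lay within a narrow range, and every HFpEF and untreated library lay above it. Cd8b, the partner of Cd8a, ranged from 0 CPM in control 9w 3 to 5.24 in HFpEF 1.

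Costimulatory and adhesion molecules tune the response of a T cell that has met antigen. Cd2 was at 3.86, 3.18 and 3.82 CPM in control 5w, 14.2, 10.2 and 11.5 in HFpEF, 12.2, 9.84 and 9.37 in control 9w and 10.6, 8.2 and 6.43 in untreated. Cd2 reached 9.46 and 4.49 CPM in EMPA, 4.05 and 8.13 in PFD and 8.63, 2.75 and 4.07 in EMPA + PFD. This adhesion molecule of T and NK cells was lower in control 5w than in every library of HFpEF, control 9w and untreated. Cd5 was at 1.04, 1.32 and 1.59 CPM in control 5w, 5.53, 2.38 and 3.48 in HFpEF, 0.564, 0.615 and 0.199 in control 9w and 4.22, 1.95 and 1.16 in untreated. Cd5 reached 2.4 and 1.46 CPM in EMPA, 0.548 and 1.75 in PFD and 2.25, 0.837 and 0.522 in EMPA + PFD. Cd5 dampens receptor signals, and control 9w had 2 to 5 counts a library, while PFD 1 and EMPA + PFD 3 were as low. Cd28 was at 2.83, 2.48 and 2.63 CPM in control 5w, 3.95, 2.02 and 2.23 in HFpEF, 4.96, 6.03 and 6.88 in control 9w and 2.53, 1.46 and 2.32 in untreated. Cd28 reached 2.53 and 1.46 CPM in EMPA, 2.96 and 2.67 in PFD and 3.07, 2.39 and 3.03 in EMPA + PFD. Cd28 gives the main costimulatory signal, and the 3 control 9w libraries were above the other 16. Icos was at 1.22, 3.41 and 2.23 CPM in control 5w, 4.38, 2.11 and 4.73 in HFpEF, 1.47, 2.71 and 2.49 in control 9w and 3.06, 2.27 and 4.32 in untreated. Icos reached 1.2 and 1.58 CPM in EMPA, 3.07 and 1.95 in PFD and 0.828, 1.67 and 1.25 in EMPA + PFD. Icos is an inducible relative of Cd28, and all EMPA + PFD libraries were below all HFpEF and untreated libraries. Cd69 was at 1.7, 3.1 and 2.23 CPM in control 5w, 8.11, 6.05 and 8.31 in HFpEF, 16.5, 13.8 and 10.8 in control 9w and 8.65, 6.82 and 3.69 in untreated. Cd69 reached 14.4 and 3.4 CPM in EMPA, 3.18 and 7.72 in PFD and 5.2, 3.71 and 8.57 in EMPA + PFD. Cd69, an early activation marker that keeps lymphocytes in tissue, was lowest in the 3 control 5w libraries of all 19 and high in control 9w and EMPA 1. Cd27, a receptor of the TNF family, ranged from 0.738 to 4.45 CPM, and Ctla4, an inhibitory relative of Cd28, from 0 to 1.32.

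Lck, Zap70, Lat and Skap1 pass the receptor signal on. Lck was at 6.69, 9.16 and 7.24 CPM in control 5w, 21.9, 15.2 and 17 in HFpEF, 8.23, 6.4 and 4.09 in control 9w and 15.6, 13.2 and 7.8 in untreated. Lck reached 11.7 and 8.87 CPM in EMPA, 5.04 and 11.7 in PFD and 9.46, 4.06 and 10.6 in EMPA + PFD. HFpEF libraries were above control 5w libraries, and untreated 1 lay among them. Zap70 was at 3.77, 3.41 and 4.22 CPM in control 5w, 13.7, 9.99 and 9.38 in HFpEF, 11.6, 8.73 and 7.98 in control 9w and 8.33, 8.61 and 4.43 in untreated. Zap70 reached 11.3 and 3.64 CPM in EMPA, 3.29 and 6.48 in PFD and 6.5, 4.18 and 5.33 in EMPA + PFD. This kinase, shared by T and NK cells, was low in control 5w and high in HFpEF and control 9w. Lat was at 2.73, 3.88 and 4.38 CPM in control 5w, 11.6, 9.63 and 8.13 in HFpEF, 3.95, 3.94 and 4.49 in control 9w and 8.65, 8.85 and 3.48 in untreated. Lat reached 7.86 and 4.62 CPM in EMPA, 3.4 and 6.07 in PFD and 4.97, 2.39 and 2.82 in EMPA + PFD. HFpEF lay above both control groups, which overlapped with each other, and untreated 1 and 2 lay among the HFpEF libraries. Skap1, an adaptor, ranged from 1.53 CPM in PFD 1 to 5.81 in HFpEF 1.

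B cell genes were scarce, and Cd79b and Ms4a1 are given as raw counts. Cd79b had 3, 7 and 8 counts in control 5w, 16, 22 and 4 in HFpEF, 7, 1 and 6 in control 9w and 4, 11 and 7 in untreated. Cd79b counts were 7 and 3 in EMPA, 1 and 9 in PFD and 2, 3 and 1 in EMPA + PFD. Cd79b, the signalling chain of the B cell receptor, was highest in HFpEF 2, and EMPA + PFD had at most 3 counts in each library. Ms4a1 had 0, 3 and 5 counts in control 5w, 11, 17 and 7 in HFpEF, 4, 4 and 3 in control 9w and 3, 10 and 4 in untreated. Ms4a1 counts were 4 and 1 in EMPA, 1 and 5 in PFD and 1, 0 and 2 in EMPA + PFD. The highest counts of Ms4a1 were also in HFpEF 2, and all were near the limit of detection. Cd22 was at 4.43, 5.9 and 5.01 CPM in control 5w, 9.04, 3.48 and 3.48 in HFpEF, 1.35, 3.07 and 2.09 in control 9w and 1.48, 4.71 and 3.37 in untreated. Cd22 reached 3.73 and 3.16 CPM in EMPA, 1.75 and 2.37 in PFD and 2.84, 0.837 and 1.15 in EMPA + PFD. Cd22 restrains the B cell receptor, and it was highest in HFpEF 1, while the other HFpEF libraries lay below all control 5w libraries. Blk, a kinase of B cells, ranged from 0.533 to 2.69 CPM.

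The transcription factors Ikzf1 and Ikzf3 act in lymphoid development, Tbx21 directs cytotoxic and type 1 helper programs, and Foxp3 defines regulatory T cells. Ikzf1 was at 6.31, 7.84 and 8.04 CPM in control 5w, 14.4, 4.77 and 8.75 in HFpEF, 3.72, 3.57 and 4.09 in control 9w and 8.44, 6.98 and 4.43 in untreated. Ikzf1 reached 5.59 and 3.16 CPM in EMPA, 2.85 and 4.63 in PFD and 4.97, 2.39 and 4.6 in EMPA + PFD. HFpEF 1 was highest, and HFpEF 2 was below every control 5w library. Ikzf3 was at 0.942, 1.32 and 0.557 CPM in control 5w, 3.37, 2.57 and 2.86 in HFpEF, 1.02, 0.615 and 0.997 in control 9w and 3.27, 1.87 and 1.05 in untreated. Ikzf3 reached 1.33 and 0.607 CPM in EMPA, 0.876 and 1.54 in PFD and 2.48, 1.32 and 3.34 in EMPA + PFD. HFpEF lay above both control groups, and EMPA + PFD 3 was among the highest libraries. Tbx21 was at 5.56, 3.57 and 3.26 CPM in control 5w, 7.25, 10.3 and 6.34 in HFpEF, 14.1, 17.2 and 10.3 in control 9w and 11.1, 9.17 and 4.43 in untreated. Tbx21 reached 12.3 and 3.77 CPM in EMPA, 3.07 and 7.0 in PFD and 8.04, 4.66 and 5.75 in EMPA + PFD. Control 9w and EMPA 1 were high, and the control 9w libraries lay above the control 5w libraries. Foxp3 was at 1.7, 1.16 and 2.07 CPM in control 5w, 1.87, 1.28 and 1.88 in HFpEF, 2.59, 1.6 and 1.7 in control 9w and 2.85, 1.3 and 1.79 in untreated. Foxp3 reached 2.93 and 2.06 CPM in EMPA, 2.19 and 2.37 in PFD and 1.89, 1.67 and 3.34 in EMPA + PFD. Foxp3 stayed between 1.16 and 3.34 CPM, and no group stood apart.

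The cytotoxic and NK genes were Gzmb, Gzmk and Prf1, which encode the granzymes and perforin, Nkg7, a granule membrane protein, and the receptors Klrd1 and Ncr1. Gzmk was at 1.98, 2.09 and 2.23 CPM in control 5w, 6.82, 5.13 and 8.22 in HFpEF, 4.17, 2.21 and 3.79 in control 9w and 2.43, 5.28 and 1.79 in untreated. Gzmk reached 8.92 and 2.06 CPM in EMPA, 2.19 and 2.98 in PFD and 2.84, 3.59 and 8.46 in EMPA + PFD. EMPA 1 and EMPA + PFD 3 were above every HFpEF library, while their fellow libraries were low. Nkg7 was at 3.86, 2.79 and 3.34 CPM in control 5w, 8.47, 7.24 and 8.22 in HFpEF, 7.11, 6.15 and 5.09 in control 9w and 6.75, 5.76 and 4.21 in untreated. Nkg7 reached 10.9 and 2.55 CPM in EMPA, 3.29 and 5.66 in PFD and 5.91, 3.23 and 8.15 in EMPA + PFD. HFpEF lay above control 5w, and EMPA 1 was the highest of the 19 and EMPA 2 the lowest. Klrd1 was at 1.79, 2.64 and 2.86 CPM in control 5w, 8.68, 15.7 and 8.57 in HFpEF, 25.2, 18 and 20.4 in control 9w and 15.3, 13.1 and 7.06 in untreated. Klrd1 reached 24 and 3.52 CPM in EMPA, 3.51 and 13.2 in PFD and 13.6, 7.41 and 15.6 in EMPA + PFD. Klrd1, a subunit of NK receptors for nonclassical class I molecules, was lowest in the 3 control 5w libraries. Ncr1 was at 2.36, 1.55 and 1.91 CPM in control 5w, 1.79, 3.85 and 2.32 in HFpEF, 11.6, 10.7 and 8.48 in control 9w and 4.75, 3.09 and 2.11 in untreated. Ncr1 reached 6.13 and 1.46 CPM in EMPA, 2.85 and 4.11 in PFD and 5.08, 2.03 and 6.79 in EMPA + PFD. Ncr1 is an activating NK receptor, and the 3 control 9w libraries lay above the other 16. Gzmb ranged from 0.310 to 5.46 CPM and Prf1 from 2.30 to 12.9, both highest in EMPA 1.

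**Figure D1:**
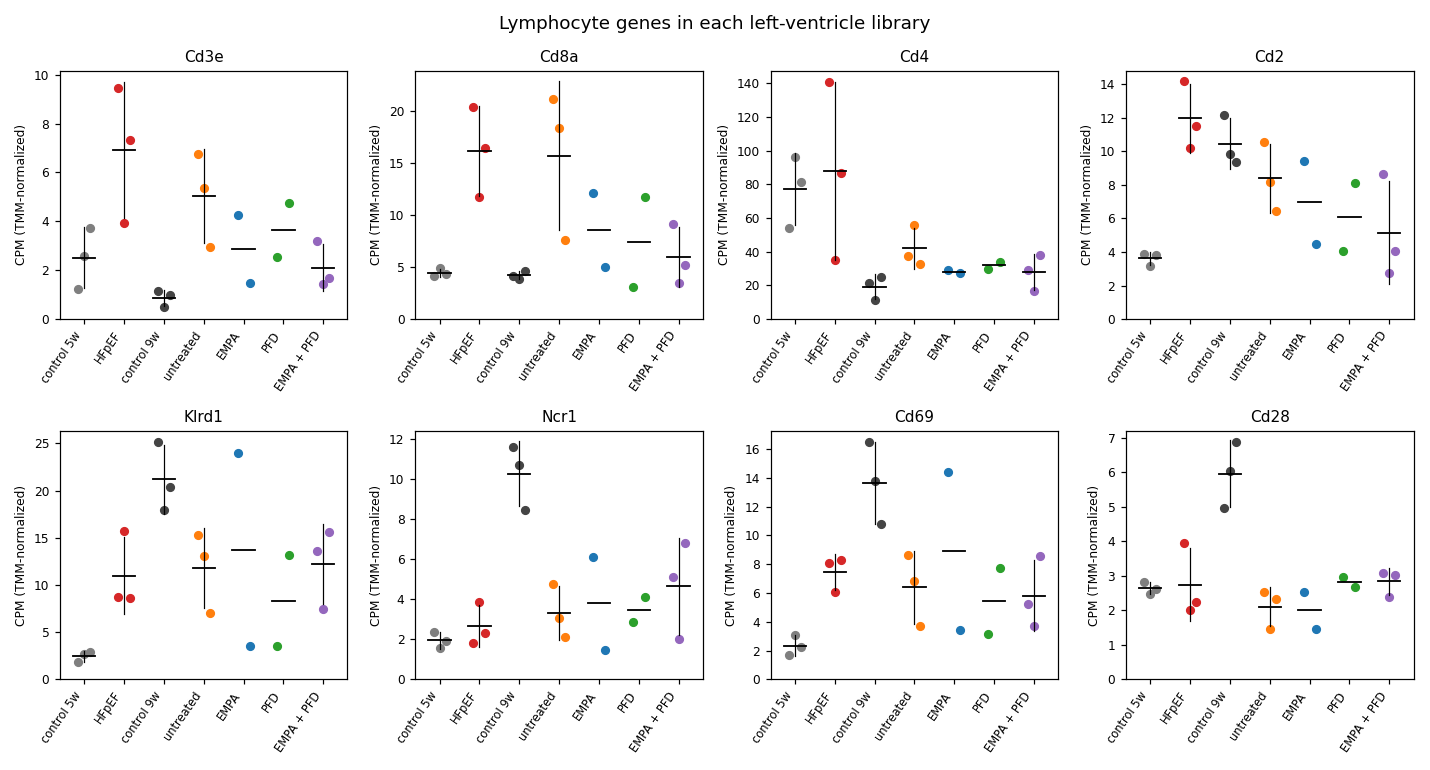
Level of 8 lymphocyte genes in CPM (vertical axis) in the 7 groups (horizontal axis), where each point is 1 library, horizontal bars are group means and vertical bars are SD for groups of 3. Ncr1 and Cd28 were highest in the 3 control 9w libraries, whereas Cd3e was lowest there.

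Differences between groups are log2 fold changes from edgeR, given with their standard error (±), so that 1 is a 2-fold difference. A differentially expressed gene (DEG) had a Benjamini-Hochberg adjusted p under 0.05 over all 12388 tested genes and a fold change of at least 2. Disease establishment (DE) was read from HFpEF against control 5w. Of the 31 tested lymphocyte genes 13 were higher and 0 lower, and 17 passed an unadjusted p under 0.05, as did 4436 of all tested genes. DEGs in either direction were 8.69% of all tested genes, and 4.28% were higher. The median log2 fold change was 1.25 for the lymphocyte genes and 0.02 for all tested genes. All HFpEF libraries lay above all control 5w libraries in 20 of the 31, compared with 18.6% of all tested genes. Within the receptor complex 3 of 4 genes rose, Cd3d by 1.83 ± 0.56, adjusted p = 0.0328, Cd3g by 1.57 ± 0.49, adjusted p = 0.0356, and Cd247 by 1.25 ± 0.41, adjusted p = 0.0461. Cd3e was at 1.45 with adjusted p = 0.0545 and missed the threshold. Of the coreceptors Cd8a rose by 1.85 ± 0.49, adjusted p = 0.0186, while Cd4 was at 0.18, adjusted p = 0.775. The signalling genes Zap70 (1.54 ± 0.38, adjusted p = 0.014), Lat (1.41 ± 0.37, adjusted p = 0.0174) and Lck (1.23) rose, as did the adhesion molecule Cd2 (1.72 ± 0.38, adjusted p = 0.00885) and Cd69 (1.67). Of the cytotoxic and NK genes 3 of 6 rose, Klrd1 by 2.16 ± 0.61, adjusted p = 0.0235, Gzmk by 1.67 and Nkg7 by 1.26. Ikzf3 rose by 1.63, and 0 of 3 B cell genes passed by edgeR, with 0 at an unadjusted p under 0.05.

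The number of lymphocyte DEGs in DE depended on single libraries. Leaving out 1 library gave 2 DEGs without control 5w 1, 6 without control 5w 2, 3 without control 5w 3, 3 without HFpEF 1, 8 without HFpEF 2 and 6 without HFpEF 3. Cd2 and Zap70 passed in all 6 omissions, in which 730 to 1113 of all genes did. Cd3d, Cd247, Lck, Gzmk and Nkg7 were lost in all 6, and Cd3g in all but that of HFpEF 2, though each stayed above 0. Without HFpEF 1 and untreated 2 together 6 passed, as did 1027 of all genes. Only HFpEF holds libraries of both kinds in Eif2s3y, so a term for these counts is estimated within that group, and DE then rests on HFpEF 2, with its spread taken from other libraries. In that fit 1 lymphocyte gene passed, Klrd1 at 2.68, as did 815 of all genes. The other 12 DEGs of DE stayed above 0, from 0.90 for Cd247 to 1.54 for Cd3d, with Cd2 at 1.49 and Zap70 at 1.39. A fit with HFpEF 2 as the only HFpEF library gave the same gene. Calls lost with 1 library in a group do not show whether the values depend on Eif2s3y. DESeq2 called 15, and 1271 of all genes, and limma voom 20, and 1363 of all genes. Markers of other cell types also passed in this comparison. With all 19 libraries pooled, the gene of highest mean was Myh6 in the cardiomyocyte list, Ccl21 in the lymphatic endothelial, Vwf in the endothelial, Lyz2 in the macrophage, Col3a1 in the fibroblast, Hbb in the erythroid and blood and Nppa in the atrial list, while in single groups and libraries other genes could be above these. Cardiomyocyte genes were lower in 3 of 12, and in 0 by edgeR without control 5w 1, HFpEF 1 or HFpEF 2 (3, 3 and 4 at an unadjusted p under 0.05), with sums of 114332, 55578 and 61252 CPM in control 5w and 18769, 30521 and 50667 in HFpEF. Lymphatic endothelial genes were higher in 3 of 5 and lower in 1 of 5, with sums of 119.9, 186 and 108 and 1175, 286 and 486 CPM. Ccl21, a chemokine that draws T cells, rose by 3.38 ± 0.71, adjusted p = 0.00722. Endothelial genes were higher in 2 of 8, Vwf and Egfl7, with sums of 1848, 1512 and 1738 CPM in control 5w and 1736, 3689.6 and 2908 in HFpEF, and erythroid and blood genes in 1 of 6, Hba-a1, by 2.69 ± 0.64, adjusted p = 0.0117. Macrophage genes passed in 0 of 17 by edgeR, 1 at an unadjusted p under 0.05, with sums of 881, 2631 and 2151 CPM in control 5w and 3837, 896 and 2259 in HFpEF. The part of these cells in the lymphocyte result was not tested.

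Genes of T and NK cells outside the listed symbols were also examined in DE, where 4.28% of all tested genes were higher. These lists were written with earlier results of these data known, and genes were named by their small adjusted p. Of 30 other T cell genes 10 rose and 0 fell, among them Lag3, an inhibitory receptor beside Cd4 in the genome, by 2.41 ± 0.52, adjusted p = 0.00796, and S1pr1, which lets T cells leave tissue and is also an endothelial gene, by 1.68 ± 0.23, adjusted p = 0.000614. Lag3 was at 0.377, 1.01 and 0.477 CPM in control 5w and 2.87, 3.58 and 3.75 in HFpEF. Of 17 other cytotoxic and NK genes 6 rose, with Klrc1, the partner of Klrd1, up by 3.00 ± 0.43, adjusted p = 0.00088, and Ccl5, a chemokine of activated T and NK cells, up by 2.87 ± 0.45, adjusted p = 0.00138. Ccl5 was at 5.94, 4.42 and 8.04 CPM in control 5w and 43.8, 49.1 and 41.5 in HFpEF. Lag3 and Ccl5 were picked by their p in this comparison, so their lack of overlap adds no separate evidence. Of 16 other B and plasma cell genes 0 passed by edgeR, 4 at an unadjusted p under 0.05, and of 15 pan-leukocyte genes 0, 1 at that p.

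Physiological changes (PC) were read from control 9w against control 5w. These groups also differ in RT1-CE16 counts, and that difference cannot be told apart from time. Here 7 of 31 lymphocyte genes rose and 1 fell, where 14.7% of all tested genes were DEGs and 7.46% were higher. The median was 0.06. The NK receptor Klrd1 rose by 3.11 ± 0.62, adjusted p = 0.00215, Cd69 by 2.53 ± 0.51, adjusted p = 0.00221, and the NK receptor Ncr1 by 2.40 ± 0.51, adjusted p = 0.00294. Smaller rises were those of Tbx21, by 1.75 ± 0.45, adjusted p = 0.00885, and Cd2 by 1.53 ± 0.39, adjusted p = 0.00791. Cd28 rose by 1.17 ± 0.29, adjusted p = 0.00783, and Zap70 by 1.31 ± 0.38, adjusted p = 0.0162. Cd4 fell by 2.00 ± 0.44, adjusted p = 0.00372. Cd3e was at -1.51, adjusted p = 0.054, and did not pass. Without control 5w 2 or without control 9w 1 Zap70 no longer passed and 7 genes did, with 1335 and 1415 of all genes. Without control 5w 1 Cd3e passed as well, for 9, with 2025 of all genes. DESeq2 called 10, and 1958 of all genes, and limma voom 13, and 2716 of all genes. Other T cell genes rose in 6 of 30 and fell in 2, other cytotoxic and NK genes rose in 6 of 17, other B and plasma cell genes rose in 2 of 16 and fell in 2, and pan-leukocyte genes fell in 6 of 15. Macrophage genes fell in 12 of 17, with sums of 517, 420.0 and 598 CPM in control 9w, and fibroblast genes in 5 of 7, with sums of 4278, 3038 and 4476 CPM. The fibroblast sum of control 5w 1 lay within the range of control 9w, so that the difference came from control 5w 2 and 3, and 4 genes fell without control 5w 2 and 5 without control 5w 1 or 3. Endothelial genes rose in 6 of 8, with sums of 1848, 1512 and 1738 CPM in control 5w and 3914, 3994 and 3443 in control 9w. Lymphatic endothelial genes held DEGs in both directions. The atrial, neutrophil, and mesothelial and fat lists held higher DEGs, and the cardiomyocyte list a lower one. Their part in the lymphocyte result was not tested. DE and PC share the control 5w libraries, so their fold changes are not independent.

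The untreated consequence (UT) was read from untreated against control 9w, where untreated rats lack Eif2s3y counts and controls have them. Cd3e rose by 2.50 ± 0.57, adjusted p = 0.0396, and Cd28 fell by 1.51 ± 0.30, adjusted p = 0.0254. These were 2 of 31 lymphocyte genes, against 0.912% of all tested genes, and 10 passed an unadjusted p under 0.05, as did 2259 of all tested genes, with a median of 0.37. Every untreated library was above every control 9w library for Cd3e, and every one below for Cd28. The result rested on single libraries. Without control 9w 1, control 9w 2, untreated 1 or untreated 3 neither passed, where 21, 7, 14 and 28 of all genes did. Without control 9w 3 only Cd28 passed, and 118 of all genes. Without untreated 2 Cd5 passed as well, for 3, and 413 of all genes did. DESeq2 called 5, and 297 of all genes, and limma voom 13, and 1037 of all genes. A fit with only these groups and a fit with a term for Eif2s3y counts each called 0, and 105 and 2 of all genes. Untreated and control 9w are each alike in Eif2s3y counts, so the term is estimated only within HFpEF. Its result therefore does not show whether UT depends on these counts. Under all alternatives that tested them Cd28 stayed between -2.13 and -1.16 and Cd3e between 1.41 and 2.76. Genes of blood and erythroid cells fell in 2 of 6, with sums of 1538, 1836 and 1182 CPM in control 9w and 233, 186 and 306 in untreated. Of other T cell genes 1 of 30 rose, Bcl11b, and of other cytotoxic and NK genes 1 of 17 rose, Ctsw, and 1 fell, Cd244, all 3 named after their values were seen. Their part in the result was not tested.

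The difference between the disease effect at week 9 and that at week 5, UT minus DE, was tested as an interaction, in which no library enters both effects. The groups of UT also differ in Eif2s3y counts, and HFpEF is mixed in them. Lymphocyte genes differed in 6 of 31, all lower, where 12% of all tested genes differed and 5.67% were lower. They were Cd2 (-2.04 ± 0.53, adjusted p = 0.0167), Cd28 (-1.56), Cd69 (-2.76), Klrd1 (-3.00), Ncr1 (-2.08) and Zap70 (-1.94). For Cd69 and Klrd1 all HFpEF libraries were above all control 5w libraries, and all untreated libraries were below all control 9w libraries. The control groups of this test are those compared in PC, where the same 6 genes rose. Ncr1 did not pass in 11 of the 12 omissions of 1 library, Klrd1 was lost without HFpEF 2 and without untreated 3, and Zap70 without control 9w 1. Cd2, Cd28 and Cd69 passed in all 12, and Cd28 was lost without both untreated 2 and HFpEF 1. Erythroid and blood genes were lower in this test in 5 of 6, endothelial genes in 3 of 8 and mesothelial and fat genes in 2 of 4, and cardiomyocyte genes were higher in 3 of 12. Lymphatic endothelial genes were lower in 3 of 5 and higher in 1, other T cell genes lower in 3 of 30 and higher in 1, and other cytotoxic and NK genes lower in 5 of 17. Lower DEGs were also found among other B and plasma cell, pan-leukocyte and neutrophil genes. Their part in the lymphocyte result was not tested.

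The treatment effect (TE) was read from EMPA + PFD against untreated, which also differ in Eif2s3y counts. Of 31 lymphocyte genes 0 were DEGs by edgeR, against 3.82% of all tested genes, 5 passed an unadjusted p under 0.05, as did 4055 of all tested genes, and the median was -0.42. DESeq2 called 4, namely Cd3g, Cd8a, Icos and Lat, and 714 of all genes, and limma voom 2, Gzmk and Icos, and 834 of all genes. The 5 included Cd3g at -1.44 ± 0.52, adjusted p = 0.0784, Cd8a at -1.41 ± 0.49, adjusted p = 0.0679, and Icos at -1.35 ± 0.45, adjusted p = 0.0593. EMPA + PFD libraries overlapped with untreated libraries for Cd3g and Cd8a, and Icos was below untreated in all 3. Without EMPA + PFD 1, 4 genes passed, Cd2, Cd3g, Cd8a and Lat, and without untreated 3 Lat passed, where 793 and 210 of all genes did. Upper-quartile scaling called 1, and 515 of all genes. Prdm1, which drives plasma cell differentiation, was the only DEG of 16 other B and plasma cell genes, at -1.48 ± 0.43, adjusted p = 0.0406. Of the cytotoxic and NK genes 0 of 6 passed by edgeR, 0 at an unadjusted p under 0.05, with a median of 0.23.

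EMPA or PFD alone was compared with untreated, with 2 libraries in each drug group. With EMPA 0 of 31 passed by edgeR, DESeq2 and limma voom (5, 51 and 24 of all genes), and 1 gene, Icos, had an unadjusted p under 0.05. The median was -0.07, and 0.0404% of all tested genes passed. With PFD 0 of 31 passed by edgeR, DESeq2 and limma voom (1, 4 and 5 of all genes), and 0 had an unadjusted p under 0.05. The median was -0.46, and 0.00807% of all tested genes passed. The 2 EMPA libraries differed widely in cytotoxic and NK genes, with sums of 68.3 and 14.7 CPM, as did the PFD libraries, with 15.7 and 33.5. The interaction of EMPA and PFD called 0 of 31 by edgeR, DESeq2 and limma voom (1, 38 and 63 of all genes). Of the 31, 1 gene had an unadjusted p under 0.05, and 0.00807% of all tested genes were called by edgeR. With a single library left in a drug group, that library was assumed to vary like the others, and omissions gave 0 for each of these comparisons.

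EMPA + PFD was also compared with control 9w, both with Eif2s3y counts. Ikzf3 rose by 1.43 ± 0.49, adjusted p = 0.0358, and Cd28 fell by 1.07 ± 0.30, adjusted p = 0.0138. These 2 of 31 compare with 12.1% of all tested genes, and 7 had an unadjusted p under 0.05, as had 5500 of all tested genes. Both groups were apart in these genes, with all EMPA + PFD libraries above or below all control 9w libraries. Ikzf3 did not pass without control 9w 1, control 9w 2, control 9w 3, EMPA + PFD 1 or EMPA + PFD 3, and Cd28 did not without control 9w 3 or EMPA + PFD 2. Counts were 4 with upper-quartile scaling and with only these groups, 5 with DESeq2 and 6 with limma voom, which did not call Cd28, the last 2 with 1617 and 1958 of all genes. Endothelial genes fell in 5 of 8, erythroid and blood genes in 4 of 6 and atrial genes in 4 of 5, the last with 0 by edgeR without EMPA + PFD 2 or 3 (5 and 4 at an unadjusted p under 0.05), and cardiomyocyte genes rose in 4 of 12. Higher DEGs were also found among other T cell and lymphatic endothelial genes. Other B and plasma cell, other cytotoxic and NK, pan-leukocyte, and mesothelial and fat genes held lower DEGs. Their part was not tested.

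The week 9 groups of HFpEF rats were set against HFpEF at week 5, which lies before any treatment, so time and drug cannot be told apart in these comparisons, and all of them share the HFpEF libraries. Untreated, PFD and EMPA + PFD also differ from HFpEF in RT1-CE16 counts, and that difference cannot be told apart from time and drug. Untreated against HFpEF had 0 of 31 by edgeR, against 0.194% of all tested genes, with 1 at an unadjusted p under 0.05, 0 by DESeq2 and 7 by limma voom (2817, 441 and 1076 of all genes), and a median of -0.49. EMPA against HFpEF had 0 by edgeR, against 0.404%, with 6 at an unadjusted p under 0.05, 1 by DESeq2 and 1 by limma voom (2720, 437 and 310 of all genes), and a median of -0.65. PFD against HFpEF had 0 by edgeR, against 5.96%, with 13 at an unadjusted p under 0.05, 5 by DESeq2 and 8 by limma voom (4332, 1509 and 1261 of all genes), and a median of -1.10. Without HFpEF 2, 1 gene passed in untreated, 1 in EMPA and 2 in PFD, where 260, 183 and 760 of all genes did. Macrophage genes fell in 10 of 17 in PFD against HFpEF, and in 0 by edgeR without HFpEF 1, PFD 1 or PFD 2 (14, 15 and 11 at an unadjusted p under 0.05), with sums of 701 and 515 CPM in PFD, and pan-leukocyte genes fell in 7 of 15. Erythroid and blood genes fell in 4 of 6 in untreated and lymphatic endothelial genes in 2 of 5 in EMPA. Their part was not tested.

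EMPA + PFD against HFpEF gave 14 of 31 lower and 0 higher, where 22.7% of all tested genes were DEGs and 12% were lower. The median was -1.05, and all EMPA + PFD libraries were below all HFpEF libraries in 14 genes, of which 11 were DEGs, and in 27.7% of all tested genes. Libraries overlapped for the DEGs Cd4, Cd79b and Ikzf1. In the receptor complex Cd3g fell by 2.39 ± 0.52, adjusted p = 0.00267, Cd3d fell by 1.98 and Cd3e fell by 1.72, while Cd247 did not pass. Of the coreceptors Cd4 was at -1.65 ± 0.43, adjusted p = 0.00716, and Cd8a at -1.45, while Cd8b did not pass. Of the signalling genes Lat was at -1.53 ± 0.37, adjusted p = 0.00519, Lck at -1.16 and Zap70 at -1.05, while Skap1 did not pass. Of the costimulation and adhesion genes Cd5 was at -1.67, Icos at -1.57 ± 0.44, adjusted p = 0.0105, and Cd2 at -1.22. In that list Cd28, Ctla4, Cd27 and Cd69 did not pass. B cell gene Cd22 was at -1.74 ± 0.52, adjusted p = 0.0141, and Ikzf1 at -1.22. Cd79b was at -2.29, adjusted p = 0.032, with 42 counts in HFpEF and 6 in EMPA + PFD, a ratio of 5.13 with a 95% exact binomial interval of 2.17 to 14.8 that covers counting error only. Only HFpEF 1 and 2 had more than 1 CPM of it, so the filter kept it through the group in which it was high, and with a filter of only 1 count in all it also passed. Cd79b passed in 1 of the 6 omissions, that of HFpEF 3, which has 4 counts, and over all alternatives its log2 fold change ranged from -3.07 to -1.36. Of the 6 cytotoxic and NK genes 0 were DEGs by edgeR, 0 at an unadjusted p under 0.05, with a median of 0.15. Cd3g, Cd4, Icos and Lat passed in all 6 omissions of 1 library. The count was 5 without HFpEF 1, 4 without EMPA + PFD 2, 6 without EMPA + PFD 3, 13 without HFpEF 2, and 14 without HFpEF 3 or without EMPA + PFD 1, where 2024 to 2968 of all genes passed in the 6 fits. With a term for Eif2s3y counts it was 3, Cd3g, Cd79b and Lat, where 1759 of all genes passed. With the term all 14 stayed below 0, and Cd4 was at -0.34 and Ikzf1 at -0.26. Here too 1 library stands for HFpEF, with its spread taken from other libraries. Macrophage genes fell in 15 of 17, with sums of 384, 405 and 591 CPM in EMPA + PFD, and cardiomyocyte genes rose in 9 of 12, with sums of 111342, 136207 and 106722 CPM. Other T cell genes fell in 7 of 30, other B and plasma cell genes in 7 of 16, other cytotoxic and NK genes in 3 of 17 and pan-leukocyte genes in 11 of 15. Erythroid and blood genes fell in 5 of 6, fibroblast genes in 4 of 7, and lymphatic endothelial genes fell in 2 of 5 and rose in 1. Their part in the lymphocyte result was not tested.

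**Figure D2:**
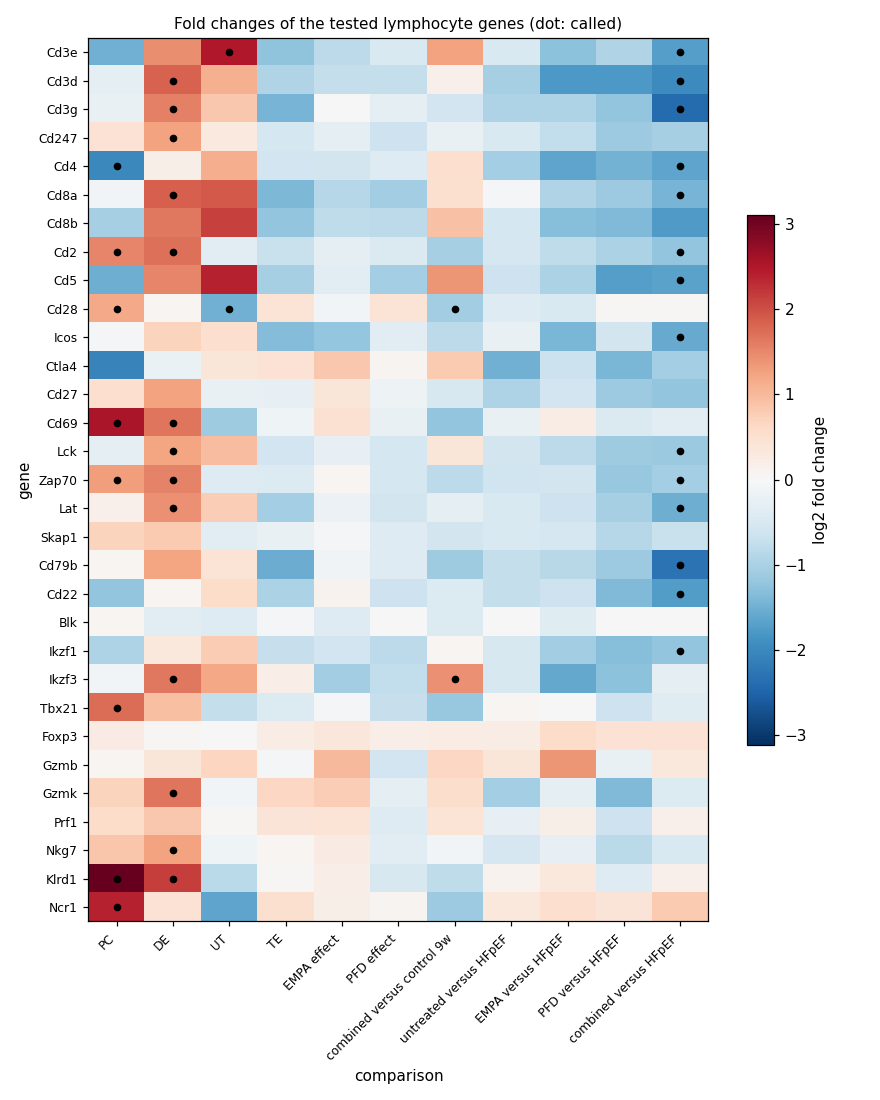
Log2 fold change (colour, red higher and blue lower) of the 31 tested lymphocyte genes (vertical axis) in 11 group comparisons (horizontal axis), where a dot marks a DEG. DE has 13 dots and EMPA + PFD against HFpEF 14.

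**Figure D3:**
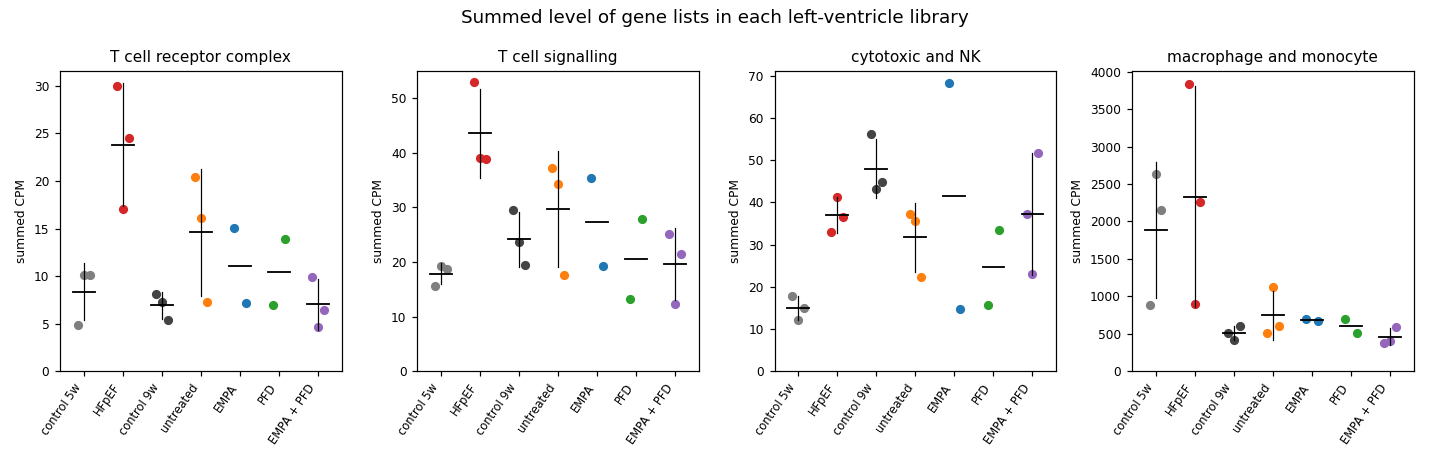
Summed CPM (vertical axis) of 4 gene lists in the 7 groups (horizontal axis), where each point is 1 library, horizontal bars are means and vertical bars SD for groups of 3. The T cell receptor complex reached 29.9, 17.1 and 24.5 CPM in HFpEF, above all 3 control 5w libraries.

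Because several lymphocyte genes rose together in DE, the 250 bases before their transcription starts were taken from RefSeq, assembly GRCr8. Promoters were found for 25 of the 36 symbols, and for 10 of the 13 DEGs of DE, with 11 promoters. Motifs were searched on both strands: ETS, AGGAAG, was in 8 of the 11 promoters, 17 of the 26 promoters of all listed symbols and 29.5% of all 33469. RUNX, TGTGGT, was in 5, 8 and 14.5%. Ikaros, TGGGAA, was in 5, 11 and 22.1%. The E-box CAGCTG was in 3, 7 and 12%, and the GATA motif, AGATAA, in 0, 3 and 10.3%. The motifs were thus not confined to the DEGs of DE. A match describes the letters only. The promoters of the 4 DEGs with the smallest adjusted p in DE are shown with these motifs in capitals, at chr2:191412660-191412909 (minus strand), chr9:46485355-46485604 (plus strand), chr1:190372137-190372386 (minus strand) and chr4:104923866-104924115 (plus strand) in this order.
Cd2: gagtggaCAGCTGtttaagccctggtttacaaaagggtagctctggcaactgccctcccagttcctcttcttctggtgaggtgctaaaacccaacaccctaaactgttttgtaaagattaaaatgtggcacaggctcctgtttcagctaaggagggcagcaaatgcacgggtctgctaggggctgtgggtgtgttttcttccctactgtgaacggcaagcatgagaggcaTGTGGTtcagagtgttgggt
Zap70: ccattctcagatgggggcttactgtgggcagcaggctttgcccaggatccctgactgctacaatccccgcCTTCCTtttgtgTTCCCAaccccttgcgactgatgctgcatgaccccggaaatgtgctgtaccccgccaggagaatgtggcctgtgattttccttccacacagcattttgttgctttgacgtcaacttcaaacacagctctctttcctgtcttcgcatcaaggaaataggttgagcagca
Lat: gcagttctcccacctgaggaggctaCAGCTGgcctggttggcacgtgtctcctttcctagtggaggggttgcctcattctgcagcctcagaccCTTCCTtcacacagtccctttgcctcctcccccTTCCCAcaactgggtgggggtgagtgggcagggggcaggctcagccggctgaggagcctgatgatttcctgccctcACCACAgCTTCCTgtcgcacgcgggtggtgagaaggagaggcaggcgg
Cd8a: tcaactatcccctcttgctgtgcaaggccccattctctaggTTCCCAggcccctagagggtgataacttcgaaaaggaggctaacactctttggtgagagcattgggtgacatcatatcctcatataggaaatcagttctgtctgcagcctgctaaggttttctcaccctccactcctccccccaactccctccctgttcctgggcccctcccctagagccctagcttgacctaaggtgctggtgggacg

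In the GRCr8 gene table Cd3g, Cd3d and Cd3e lie side by side, as do Cd8b and Cd8a, and Cd28, Ctla4 and Icos. Foxp3 overlaps Ccdc22 and Ppp1r3f, and Cd8b, Cd27, Lck, Skap1, Ikzf3, Ms4a1 and Pax5 overlap loci with provisional names. The strand setting of the counting is not given in the sources used here, so reads of overlapping genes could be shared, and these counts are uncertain to that extent.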

How the data were processed

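The values the authors deposited are raw whole counts for each gene symbol, from 19 rat left-ventricle libraries. The submitters' processing notes name Trim Galore, FastQC, HISAT2, HTSeq and the rn6 build. The strand setting is not given in the sources used here. The depth per library was 7430539 to 13017754 counts.

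Scaling was by TMM. The test was the quasi-likelihood F test of edgeR 4.0.16 (R 4.3.3) in 1 model of the 7 groups over the 12388 genes kept by filterByExpr, with Benjamini-Hochberg adjustment in each of 13 comparisons. DEGs had an adjusted p under 0.05 and a log2 fold change of 1 or more in size. The biological coefficient of variation was 0.257. The code was tested on simulated data.

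Per-library values are given for each listed gene that was a DEG in any of the 11 group comparisons, and for Cd3e, Cd4, Cd8a, Cd79b, Ms4a1, Nkg7, Foxp3 and Cd69. Of other gene lists at most 3 DEGs of TE or DE were named, and the gene most abundant on average over the 19 libraries. Bcl11b and Cd244, named in UT, are exceptions. The lists covered other T, B and NK genes, pan-leukocyte, macrophage, neutrophil, cardiomyocyte, endothelial, lymphatic, fibroblast, erythroid, atrial, and mesothelial and fat genes. The listed genes and the lists were chosen with earlier results of these data known.

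Alternatives were relative log expression and upper-quartile scaling, a filter of only 1 count in all, 10 counts required of every library, DESeq2 1.42.0, limma 3.58.1 voom with quality weights, only the groups compared, the adjusted p alone, a replicate block, a term for Eif2s3y counts, only libraries alike in Eif2s3y, and omission of each library, and of untreated 2 and HFpEF 1 together.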

Additional observations from a re-analysis of the deposited data

Results flagged for a closer look

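The effect of disease at week 9, untreated against control 9w, was compared with its effect at week 5, HFpEF against control 5w, in edgeR by an interaction. Untreated also differs from control 9w in Eif2s3y counts, which cannot be told apart from disease, and HFpEF is mixed in them. Lymphocyte genes for which the effects differed between the weeks were Cd2, with a log2 difference of -2.04 ± 0.53, adjusted p = 0.0167, Cd28, with -1.56 ± 0.42, adjusted p = 0.0194, and Cd69, with -2.76 ± 0.69, adjusted p = 0.0141. The others were Klrd1, with -3.00 ± 0.82, adjusted p = 0.0208, Ncr1, with -2.08 ± 0.70, adjusted p = 0.0498, and Zap70, with -1.94 ± 0.53, adjusted p = 0.020. All 6 differences were below 0, where 12% of all tested genes differed and 5.67% were lower. The same 6 genes rose in control 9w against control 5w. Untreated against HFpEF called 0 of the 31 tested lymphocyte genes by edgeR and 7 by limma voom. How far the differences came from the control groups was not tested. Ncr1 did not pass in 15 of the 23 alternatives that tested it, among them 11 of the 12 omissions of 1 library and the term for Eif2s3y counts.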

How the results depend on the processing

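The 45 gene calls were looked up under each alternative that tested the gene. In 601 of these look-ups the call was kept in the same direction, in 203 the direction was kept and the gene no longer passed, and in 0 the direction turned. DEG counts among the listed genes outside 1.5 times the reported count were as follows. Limma voom gave 13 in PC, 20 in DE, 13 in UT, 2 in TE, 6 in EMPA + PFD against control 9w, 7 in untreated against HFpEF, 1 in EMPA against HFpEF, 8 in PFD against HFpEF and 16 in the interaction of disease and week. DESeq2 gave 5 in UT, 4 in TE, 5 in EMPA + PFD against control 9w, 1 in EMPA against HFpEF and 5 in PFD against HFpEF. Upper-quartile scaling gave 1 in TE and 4 in EMPA + PFD against control 9w. A filter of 10 counts in every library, which tests 10549 genes and 18 of the listed, gave 1 in UT and 8 in EMPA + PFD against HFpEF. A fit with only the groups compared gave 0 in UT and 4 in EMPA + PFD against control 9w.

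The term for Eif2s3y counts gave 1 in DE, 0 in UT, 1 in untreated against HFpEF, 2 in PFD against HFpEF and 3 in EMPA + PFD against HFpEF. With only HFpEF libraries alike in these counts, 1 with them and 2 without, it was 1 in DE, 1 in untreated against HFpEF, 2 in PFD against HFpEF and 3 in EMPA + PFD against HFpEF, 1 of them Ms4a1, which the filter kept there through HFpEF 2, its highest library. Without both untreated 2 and HFpEF 1 it was 6 in DE and 5 in EMPA + PFD against HFpEF. The causes were not tested. Omitting 1 library gave 7 to 9 DEGs in PC, 2 to 8 in DE, 0 to 3 in UT, 0 to 4 in TE, 1 to 2 in EMPA + PFD against control 9w, 0 to 1 in untreated and in EMPA against HFpEF, 0 to 2 in PFD against HFpEF, 4 to 14 in EMPA + PFD against HFpEF and 4 to 6 in the interaction.

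The replicate block gave 7 in DE and 1 in UT. The replicate numbers were checked for pairing. Over 52 pairs of same-numbered libraries from different groups the correlation of deviations ran from -0.53 to 0.49 with a median of -0.07, and 11 were over 0.1. No general pairing by number was seen, but groups this small cannot exclude it. Upper-quartile scaling moved the median of all tested genes in EMPA + PFD against HFpEF by -0.11, and in TE the share of higher DEGs among all DEGs from 61.3% to 46.6%. Genes at a few counts carry little information at these depths, and EMPA and PFD had 2 libraries each.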

Other observations

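The libraries of a drug group could differ as much as groups did. EMPA 1 and EMPA 2 had T cell receptor complex sums of 15 and 7.17 CPM, and PFD 1 and PFD 2 had 7.01 and 13.9 CPM. EMPA + PFD 2 had the lowest sum of the 3, at 4.66 CPM. Atrial genes passed in 2 of 5 in TE by edgeR, Sln and Myl4, both from untreated 2 alone. Sln was at 0.317, 518 and 0.632 CPM in untreated and 0.71, 0.478 and 0.418 in EMPA + PFD, and 0 of 5 passed by edgeR without untreated 2, 0 at an unadjusted p under 0.05. Neutrophil genes rose in 1 of 7 in DE. Mesothelial and fat genes passed in 2 of 4 in DE, Wt1 and Msln. Msln was at 0, 0.31 and 0.159 CPM in control 5w and 16.7, 0.55 and 0.357 in HFpEF, so that it came from HFpEF 1, and without that library only Wt1 passed.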
